A study of Mus musculus with 6 samples.

Results

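The 10 genes described here control the shape and the number of mitochondria in the cell, and they were chosen by name and not by their measured values. Mfn1, Mfn2 and Opa1 drive fusion, Dnm1l, Fis1 and Mff drive fission, and Tfam, Nrf1, Ppargc1a and Ppargc1b drive biogenesis. All 10 were found among the 49315 genes counted, and all 10 were among the 31001 genes that passed the filter on low counts.

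Bulk RNA-seq was carried out on hematopoietic stem and progenitor cells of mouse bone marrow, with 1 library for each of 3 populations in each of 2 genotypes. The populations were long-term hematopoietic stem cells (LT-HSCs; lineage-negative Sca1+ cKit+ cells that were CD48- CD34- CD150+), short-term HSCs (ST-HSCs; CD48- CD34+ CD150+) and multipotent progenitors (MPPs; CD48- CD34+ CD150-). They came from wild-type (WT) mice, which the study's general methods describe as C57BL/6 of 8 to 12 weeks of age, and from ING4-/- mice, which lack Inhibitor of growth 4, a chromatin-binding adaptor of histone acetyltransferase complexes. The ages of the mice behind these libraries are not stated with the sequencing methods. Apart from the CD45 allele, which the general methods give as the same in both genotypes, no other allele or agent is named. The marrow of 8 to 10 mice was pooled and lineage depleted, with 1000 to 10000 cells sorted per library. Each library therefore averaged a pool of animals, and the 3 populations of a genotype stood in for its replicates.

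Mitochondria fuse and divide continuously. The mitofusins MFN1 and MFN2 join outer membranes and the GTPase OPA1 joins inner membranes, while the dynamin-related GTPase DRP1, the product of Dnm1l, is drawn to the outer membrane by receptors such as MFF and constricts it. Biogenesis is driven by the PGC-1 coactivators, which act with nuclear respiratory factors on nuclear genes for mitochondrial proteins, TFAM among them, and the balance of these processes is known to matter for how hematopoietic stem cells rest, divide and differentiate.

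The ING4-/- libraries held 35596876 to 39192588 counts and the WT libraries 7839326 to 9363442 counts, a median ratio of 4.70. The libraries differed in a further way that touches every fold change below. In the 1431 olfactory and vomeronasal receptor genes, which blood cells are not known to use, the WT libraries held 18.1 to 22.7 counts per kb of exon, a density that over all exons equals 22.6% to 33.4% of their counts, whereas the ING4-/- libraries held at most 0.0851 counts per kb (at most 0.028%). Each comparison was therefore also made on the 9673 genes with 10 or more counts in each of the 6 libraries, called the fully counted genes below, and on counts from which this background had been subtracted (16864 genes). Where 3 values of a genotype follow each other, they are in the order LT-HSC, ST-HSC, MPP. Ing4 itself was counted 247, 162 and 247 times in WT and 0, 24 and 76 times in ING4-/- cells, and 34.9% of its exonic bases are shared with Gm44597 on the same strand. The sort markers Kit, Ly6a, Cd34 and Slamf1 had counts in all 6 libraries and Cd48 in all but the ING4-/- LT-HSC library. Markers of other marrow cells had summed levels of 32.6 to 163 CPM (erythroid, 8 genes), 99.0 to 329 CPM (granulocyte, 9 genes), 107 to 135 CPM (B cell, 8 genes) and 91.5 to 183 CPM (T and NK cell, 8 genes) in WT. In ING4-/- libraries they were at 87.6 to 191, 368 to 670, 66.6 to 125 and 82.8 to 308 CPM, with 6 of 8 B cell and 4 to 5 of 8 T and NK cell markers at 0. The WT sums hold background. In the same order, the background density alone would give 241 to 303, 248 to 312, 616 to 774 and 322 to 404 WT counts. The summed WT counts were 332 to 1545, 940 to 3349, 1089 to 1280 and 869 to 1868. The part of such cells in the results was not tested. In bulk RNA, fewer cells that use a gene and less RNA per cell cannot be told apart.

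Promoter sequence was examined first, because nuclear respiratory factors act on many genes of this group. In the 250 bases before the RefSeq start sites (GRCm38.p6), which were found for all of the 10 genes but Ppargc1b, 3 motifs were searched on both strands, and a gene was counted when any of its start sites had a match. These were the GABP (ETS) motif CCGGAAGT (reverse complement ACTTCCGG), the NRF1 motif (10 letters with 1 free base, as matched in the Opa1 line) and the E-box CACGTG, which reads the same on both strands. Each printed promoter held matches of 1 motif at 1 place, so that no 2 motifs overlapped. The GABP motif was present before Mfn1, Fis1 and Tfam, that is in 3 of 9 genes, against 3.23% of 27025 genes and 2.88% of 32851 windows of the same length. The NRF1 motif was present before Opa1, in 1 of 9 genes against 4.23% of all genes and 3.74% of windows, and the E-box before none of the 9 against 6.86% of all genes and 6.02% of windows. The 4 promoters with a match are printed 5′ to 3′ with the motif in capitals, since they include both genes called higher in ING4-/- cells and the fusion gene with the lowest ING4-/- levels.

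Fis1 promoter, chr5:136953025-136953274, + strand: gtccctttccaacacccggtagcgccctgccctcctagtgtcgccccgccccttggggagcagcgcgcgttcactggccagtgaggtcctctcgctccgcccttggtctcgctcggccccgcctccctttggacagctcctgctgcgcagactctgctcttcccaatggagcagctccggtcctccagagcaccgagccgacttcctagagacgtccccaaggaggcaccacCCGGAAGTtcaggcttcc
Tfam promoter, chr10:71238045-71238294, - strand: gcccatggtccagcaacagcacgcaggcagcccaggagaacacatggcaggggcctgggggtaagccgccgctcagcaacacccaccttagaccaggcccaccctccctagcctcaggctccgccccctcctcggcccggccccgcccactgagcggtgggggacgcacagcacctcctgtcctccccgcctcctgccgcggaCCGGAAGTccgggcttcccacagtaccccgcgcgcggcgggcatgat
Mfn1 promoter, chr3:32529232-32529481, + strand: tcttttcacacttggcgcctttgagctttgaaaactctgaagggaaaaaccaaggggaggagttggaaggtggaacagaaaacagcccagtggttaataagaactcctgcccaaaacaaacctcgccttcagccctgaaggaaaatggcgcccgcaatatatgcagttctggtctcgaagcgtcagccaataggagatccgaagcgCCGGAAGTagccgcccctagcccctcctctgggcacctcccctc
Opa1 promoter, chr16:29579084-29579333, + strand: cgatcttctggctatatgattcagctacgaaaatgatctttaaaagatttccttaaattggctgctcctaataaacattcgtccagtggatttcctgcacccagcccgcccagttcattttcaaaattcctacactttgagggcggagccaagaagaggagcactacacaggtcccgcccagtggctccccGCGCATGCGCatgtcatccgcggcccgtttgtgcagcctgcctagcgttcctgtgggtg

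The GABP match began 18 bases before the start site in Fis1, 47 bases before it in Tfam and 44 bases before it in Mfn1, and the NRF1 match began 59 bases before the start site in Opa1. The motif therefore stood before genes with opposite fold changes (Fis1 and Tfam against Mfn1, below), and a match to these letters is a description of the sequence only.

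The first comparison asked which of these genes differed between ING4-/- and WT cells with the 3 populations of each genotype in 1 group. Fis1 and Tfam were higher in ING4-/- cells, no gene of the 10 was called lower, and Mfn1 and Ppargc1a had the most negative fold changes without passing the threshold. A gene was called when edgeR's quasi-likelihood test gave a Benjamini-Hochberg adjusted p under 0.05 over all 31001 genes and the absolute log2 fold change was over 1. Of all genes tested, 64.6% were called, 7.98% higher and 56.7% lower, beside 2 of 10 higher and 0 of 10 lower here. At an unadjusted p under 0.05 there were 4 of these 10 genes, beside 21262 of all 31001. With population as a block 60.9% of all genes were called (6.45% higher, 54.4% lower), beside the same 2 genes here. Among the fully counted genes 18% were called (8.3% higher, 9.68% lower) and after background subtraction 43% (7.8% higher, 35.2% lower), beside 0 higher and 1 lower of the 9 and the 10 of these genes tested there. The median log2 fold change of all genes was -6.85, and it was 0.02 over the fully counted genes.

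**Figure D1:**
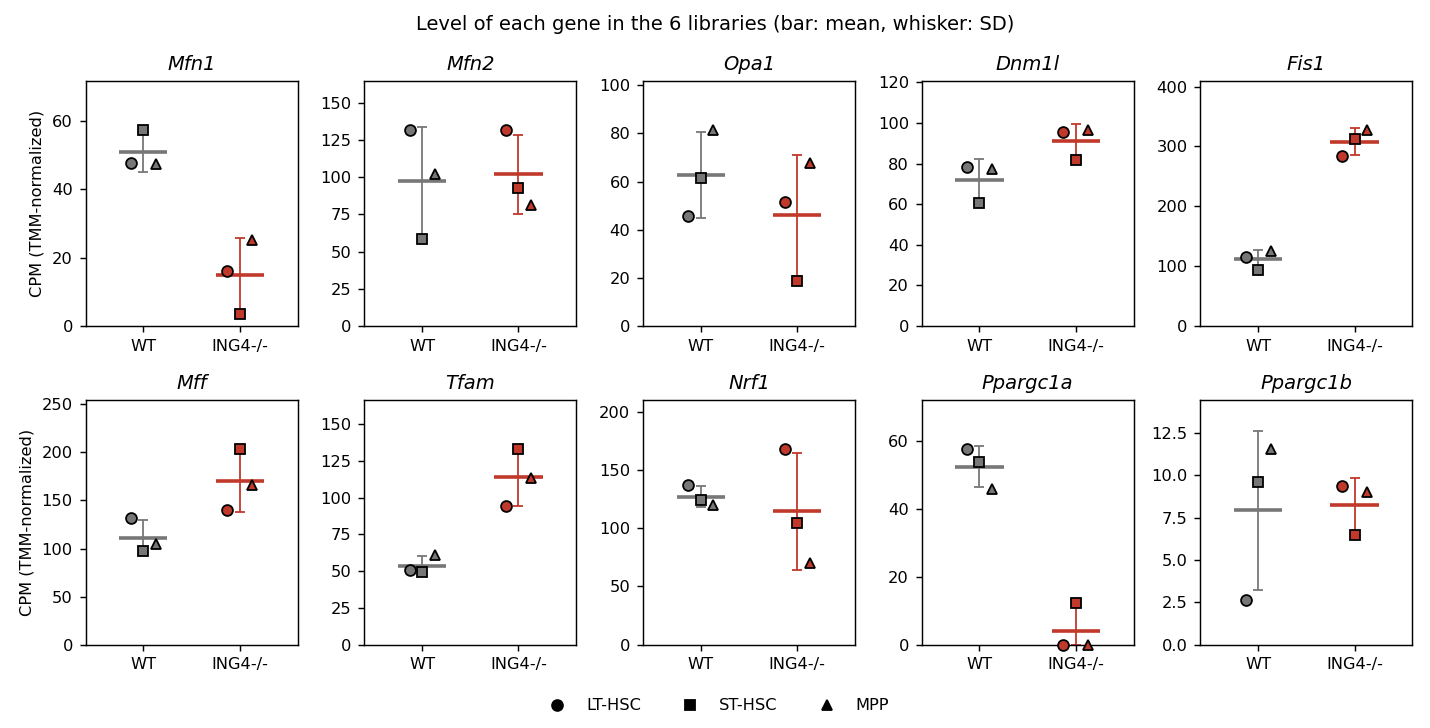
Level of each of the 10 genes in the 6 libraries, in TMM-normalized CPM (linear axis from 0), with WT in grey and ING4-/- in red; circles are LT-HSCs, squares ST-HSCs and triangles MPPs, bars are means and whiskers SD (n = 3 populations, cut at 0). The ING4-/- libraries lie above all WT libraries for Dnm1l, Fis1, Mff and Tfam and below them for Mfn1 and Ppargc1a.

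Among the fission genes, Fis1 showed the clearest difference. Fis1, ENSMUSG00000019054 (chr5:136953275-136966234, + strand), encodes an outer-membrane adaptor of the fission machinery. It had 115, 93.9 and 125 CPM (counts scaled to the TMM-normalized library size) in WT and 284, 313 and 327 CPM in ING4-/- cells. The lowest ING4-/- library was more than 2 times the highest WT library, and the ING4-/- values lay close together. The mean rose from 111 ± 16.1 to 308 ± 22.01 CPM (SD, n = 3), a log2 fold change of 1.47 (SE 0.19, edgeR adjusted p = 6.57e-04). The promoter printed above with its GABP match belongs to this gene. Fis1 was the shortest of the 10 at 1714 exonic bases, and length moved with the fold change across genes. Over the fully counted genes, the median log2 fold change was 0.76 for 1833 genes under 2000 bases, 0.33 for 3052 genes of 2000 to 4000 bases, -0.21 for 3398 genes of 4000 to 8000 bases and -1.09 for 1390 genes from 8000 bases. Among these genes the Fis1 log2 fold change was 0.96 (adjusted p = 0.00814), after background subtraction 0.72 (adjusted p = 0.00847), and with the length trend removed 0.57 (adjusted p = 0.068), each under the fold threshold.

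Mff, the membrane receptor that recruits DRP1 (chr1:82724890-82752394, + strand), had 132, 97.2 and 105 CPM in WT. In ING4-/- cells it had 140, 204 and 166 CPM. All 3 ING4-/- values were above all 3 WT values, but the LT-HSC libraries of the genotypes were close while the ST-HSC libraries stood far apart. The log2 fold change of 0.61 (SE 0.23) did not pass the test (edgeR adjusted p = 0.052). Mff has 9757 exonic bases, and with the length trend removed its log2 fold change was 1.34 (adjusted p = 0.00754), which was called, as was 1.20 with upper-quartile scaling (adjusted p = 0.0027). It was not called by edgeR with DESeq2 size factors (0.24, adjusted p = 0.412), among the fully counted genes (0.09, adjusted p = 0.814) or after background subtraction (0.10, adjusted p = 0.768).

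Dnm1l, which encodes the GTPase that cuts the organelle (chr16:16312235-16359030, - strand), was at close levels in all 6 libraries. It had 78.2, 60.4 and 77.4 CPM in WT and 95.7, 81.7 and 96.5 CPM in ING4-/- cells. The ST-HSC library was the lowest in both genotypes, and the ranges did not overlap. Its log2 fold change was 0.34 (SE 0.23, edgeR adjusted p = 0.23) and took the opposite sign with DESeq2 size factors (-0.01), among the fully counted genes (-0.16) and after background subtraction (-0.26). Ranges that did not overlap with ING4-/- above WT were found for 12% of all genes tested, beside 4 of these 10 genes.

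Among the fusion genes, Mfn1 had the widest gap between the genotypes. Mfn1, a mitofusin of the outer membrane (ENSMUSG00000027668, chr3:32529465-32579239, + strand), had 47.6, 57.3 and 47.4 CPM in WT. It had 16.04, 3.38 and 25.1 CPM in ING4-/- cells, that is 502, 107 and 850 counts. Every ING4-/- value was below every WT value, and ING4-/- ST-HSCs stood far below the other ING4-/- populations. The mean was 50.8 ± 5.65 CPM in WT and 14.8 ± 10.9 CPM in ING4-/- cells (SD, n = 3). The log2 fold change was -1.77 (SE 0.70) and just missed the threshold (edgeR adjusted p = 0.0572). Mfn1 was called lower among the fully counted genes (-2.29, adjusted p = 0.0399), after background subtraction (-2.13, adjusted p = 0.047), with DESeq2 size factors (-2.14, adjusted p = 0.029), by the DESeq2 test (-2.14, adjusted p = 0.0108), and without the ING4-/- ST-HSC library (-1.28, adjusted p = 0.0293) or the ING4-/- MPP library (-2.36, adjusted p = 0.0282). With population as a block the background-subtracted difference lost its call (-2.46, adjusted p = 0.0882). Across the alternatives 6 called Mfn1 and 11 did not. Those without a call included the length trend removed (-1.69, edgeR adjusted p = 0.113), upper-quartile scaling (-1.20, edgeR adjusted p = 0.158) and the block alone (-2.13, edgeR adjusted p = 0.0721). Leaving out 1 WT library gave an edgeR adjusted p of 0.0985 to 0.136. Mfn1 has 6114 exonic bases. Ranges with ING4-/- below WT were found for 62.9% of all genes, so that the 2 of 10 here, Mfn1 and Ppargc1a, were fewer than the background share.

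Mfn2, the other mitofusin, which also tethers mitochondria to the endoplasmic reticulum (chr4:147873599-147904704, - strand), did not follow Mfn1. It had 132, 58.7 and 102 CPM in WT and 132, 92.4 and 81.5 CPM in ING4-/- cells. The LT-HSC libraries were level and the highest of each genotype, and the ranges overlapped. The log2 fold change was 0.07 (SE 0.35, edgeR adjusted p = 0.887), and its sign was negative with DESeq2 size factors (-0.28), among the fully counted genes (-0.44) and after background subtraction (-0.54).

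Opa1, which fuses inner membranes and holds cristae together (chr16:29579334-29654884, + strand), had 45.7, 61.4 and 81.4 CPM in WT and 51.7, 18.5 and 67.8 CPM in ING4-/- cells. The ranges overlapped, and the ING4-/- ST-HSC library was again the lowest, as for Mfn1. The log2 fold change was -0.45 (SE 0.51, edgeR adjusted p = 0.474), and 0.13 with upper-quartile scaling. By edgeR with TMM scaling, none of the 3 was called over all 31001 genes. They had a median log2 fold change of -0.45, beside 0.61 for the fission genes.

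**Figure D2:**
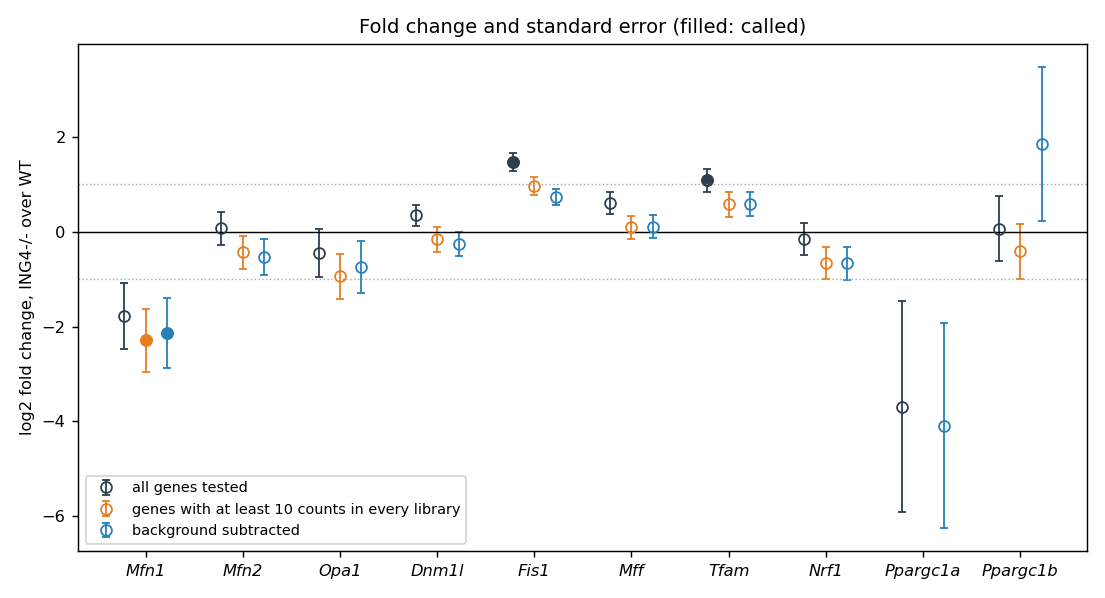
Log2 fold change of ING4-/- over WT with its standard error for the 10 genes, on all 31001 genes tested (dark), on the fully counted genes (orange) and after background subtraction (blue); filled points were called and dotted lines mark log2 fold changes of -1 and 1. Fis1 and Tfam were called on all genes tested alone (1.47 and 1.08) of these 3 analyses, Mfn1 in the other analyses (-2.29 and -2.13), and Ppargc1a has no orange point because it had 0 counts in 2 libraries.

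Of the biogenesis genes, Tfam was called. Tfam encodes the factor that packages mitochondrial DNA and starts its transcription (ENSMUSG00000003923, chr10:71225464-71238280, - strand). It had 51.1, 49.1 and 61.3 CPM in WT and 94.4, 134 and 114 CPM in ING4-/- cells. All ING4-/- values were above all WT values, with the widest gap in ST-HSCs. The mean rose from 53.8 ± 6.56 to 114 ± 19.6 CPM (SD, n = 3), a log2 fold change of 1.08 (SE 0.24, edgeR adjusted p = 0.00514). The fold change lay near the threshold, and the call was lost without the WT ST-HSC library (0.97) or the ING4-/- ST-HSC library (0.98), with DESeq2 size factors (0.72), among the fully counted genes (0.58, adjusted p = 0.149) and after background subtraction (0.58, adjusted p = 0.1).

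Nrf1, the nuclear respiratory factor whose motif was searched above (chr6:30047988-30153458, + strand), had steady WT levels of 137, 124 and 120 CPM. In ING4-/- cells it had 169, 105 and 69.9 CPM. The ING4-/- range spanned the whole WT range, with LT-HSCs above it and MPPs below it. The log2 fold change was -0.15 (SE 0.33, edgeR adjusted p = 0.716), and it was positive with upper-quartile scaling (0.45) and with the length trend removed (0.68), Nrf1 being the longest of the 10 at 10282 exonic bases.

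Ppargc1a and Ppargc1b, which encode the coactivators PGC-1α and PGC-1β, had the lowest mean levels per kb of exon in both genotypes. Ppargc1a (ENSMUSG00000029167, chr5:51454250-51567726, - strand) had 550, 500 and 468 counts in WT, or 57.9, 53.8 and 45.9 CPM. In the deeper ING4-/- libraries it had 0, 387 and 0 counts, or 12.2 CPM in ST-HSCs. Against a floor of 3 counts per library, and with the mean WT background subtracted, the level was 442-fold lower in ING4-/- LT-HSCs and 387-fold lower in ING4-/- MPPs than in the WT library of the same population. It was 3.08-fold lower in ING4-/- ST-HSCs (4.40-fold without subtraction). These folds compare single libraries, and the floors cover counting error only. The subtracted densities were 22.4 (WT LT-HSC) and 18.1 (WT MPP) counts per kb. Receptor genes of at least 1000 exonic bases reached 71.5 and 50.1 counts per kb there at the 95th percentile, so the folds are not bounds against that spread. The fitted log2 fold change of -3.69 (SE 2.22) did not pass the test (edgeR adjusted p = 0.188). Ppargc1a was called lower when the ING4-/- ST-HSC library was left out (adjusted p = 0.00129), which leaves only ING4-/- libraries with 0 counts. With population as a block the log2 fold change was -9.24 (SE 3.35, edgeR adjusted p = 0.0589).

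Ppargc1a in WT was set against genes that should be silent. It held 70.995 to 83.4 counts per kb, 3.34 to 3.92 times the receptor-gene density. This was above 96.7%, 97.0% and 98.4% of 1210 receptor genes of at least 1000 bases, and above 96.7% to 97.0% of the 5562 genes of that length with 0 counts in every ING4-/- library. Subtracting the background left 402, 350 and 349 of its WT counts. Ppargc1b (3990 exonic bases) had 25, 89 and 118 counts in WT, where the background density alone would give 89.3, 90.7 and 72.2 counts. It had 293, 204 and 305 counts in the ING4-/- libraries. Scaled to depth these were 2.63, 9.58 and 11.6 CPM in WT and 9.36, 6.45 and 8.99 CPM in ING4-/- cells, ranges that overlapped. The log2 fold change was 0.06 (SE 0.68, edgeR adjusted p = 0.948), and 1.84 (adjusted p = 0.406) after subtraction, which left WT counts in MPPs only (46).

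**Figure D3:**
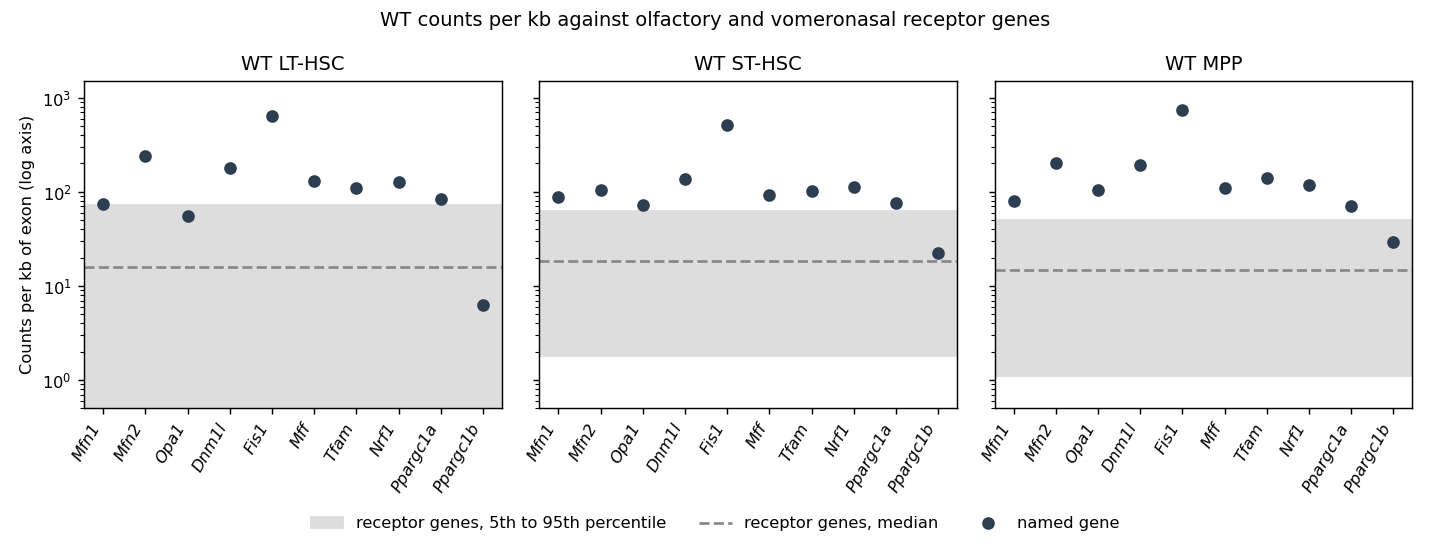
Counts per kb of exon (log axis) of the 10 genes in the 3 WT libraries, with the median (dashed line) and the 5th to 95th percentile (grey band) of 1210 receptor genes of at least 1000 exonic bases; in LT-HSCs the band reaches 0, below the axis. Fis1 lies furthest above the band, Mfn1 and Ppargc1a lie just above it in every library, Opa1 falls inside it in LT-HSCs, and Ppargc1b lies inside it in all 3 libraries.

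The distance from the background differed between the other genes, and between libraries of 1 gene. In WT libraries Fis1 had 22.4 to 41.3 times the receptor-gene density, Dnm1l 6.01 to 10.6 times and Mfn2 4.62 to 11.05 times. Tfam had 4.52 to 7.79 times this density, Nrf1 4.95 to 6.60 times, Mff 4.07 to 6.06 times, Mfn1 3.30 to 4.37 times and Opa1 2.46 to 5.83 times, so that Opa1 in LT-HSCs and ST-HSCs and Mfn1 in LT-HSCs were nearer to it than Ppargc1a. In every ING4-/- library in which they were counted, each of the 10 genes had at least 253 times the receptor-gene density there.

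Levels were compared between genes as CPM per kb of exon. In WT cells Fis1 was highest at 65.0 ± 9.40 (SD, n = 3), followed by Mfn2 at 18.7 ± 7.05 and Dnm1l at 17.5 ± 2.45, whose ranges overlapped. Nrf1 (12.4 ± 0.84), Tfam (12.1 ± 1.48) and Mff (11.4 ± 1.88) came next with overlapping ranges. Mfn1 (8.30 ± 0.92), Opa1 (7.98 ± 2.27) and Ppargc1a (7.97 ± 0.93) likewise overlapped, and Ppargc1b was lowest at 1.99 ± 1.18. In ING4-/- cells Fis1 was again highest at 180 ± 12.8, above Tfam (25.7 ± 4.42), Dnm1l (22.2 ± 2.03), Mfn2 (19.6 ± 5.07), Mff (17.4 ± 3.30) and Nrf1 (11.1 ± 4.86). Opa1 (5.84 ± 3.19), Mfn1 (2.43 ± 1.78), Ppargc1b (2.07 ± 0.40) and Ppargc1a (0.62 ± 1.07) were lowest. Each gene from Tfam downwards overlapped with the next in this order. Tfam thus moved from the fifth place in WT to the second in ING4-/- cells. Fis1 made up 38.7% to 41.6% of the summed level of the 10 genes in WT libraries and 59.6% to 64.9% in ING4-/- libraries, while Mfn1 made up 4.41% to 6.61% and 0.19% to 1.39%.

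A ratio of genes within 1 library does not depend on how libraries are scaled to each other. The summed length-scaled counts of Mfn1, Mfn2 and Opa1 relative to those of Dnm1l, Fis1 and Mff were 0.390, 0.358 and 0.367 in WT. They were 0.170, 0.0927 and 0.123 in ING4-/- cells. The fusion genes were therefore lower relative to the fission genes in all 3 ING4-/- libraries, a difference of -1.58 on the log2 scale (WT -1.43 ± 0.06, ING4-/- -3.01 ± 0.44, SD, n = 3; two-sided exact permutation test p = 0.1, adjusted over 3 ratios 0.1). With 3 libraries against 3, the smallest p this test can give is 0.1. After background subtraction the difference was -1.37 (exact p = 0.1, adjusted 0.15). Fis1 dominates the fission sum, and without it, relative to Dnm1l and Mff alone, the ratio was 1.19, 1.15 and 1.27 in WT and 0.917, 0.507 and 0.702 in ING4-/- cells, again without overlap. This ratio was added after the data had been seen and was not tested. Neither ratio was recomputed with the length trend removed. The fusion genes have 5194 to 7875 exonic bases, and Fis1 has 1714. With the length trend removed the log2 fold changes were -1.69 (Mfn1), -0.02 (Mfn2) and -0.02 (Opa1), beside 0.0037 (Dnm1l), 0.57 (Fis1) and 1.34 (Mff).

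The mitofusins shifted relative to each other. Mfn2 was 3.25, 1.21 and 2.53 times as high as Mfn1 in WT and 9.66, 32.1 and 3.83 times as high in ING4-/- cells. The mean log2 ratio differed by 2.30 (exact permutation test p = 0.1, adjusted 0.1), and by 2.07 after background subtraction, where the ranges overlapped (exact p = 0.2, adjusted 0.2). Fis1 was 3.52, 3.72 and 3.88 times as high as Dnm1l in WT and 7.12, 9.17 and 8.13 times in ING4-/- libraries. The difference of 1.13 on the log2 scale was larger than the spread between libraries of a genotype (WT 1.89 ± 0.07, ING4-/- 3.02 ± 0.18, SD, n = 3; exact permutation test p = 0.1, adjusted 0.1), and it was 0.98 after subtraction (exact p = 0.1, adjusted 0.15). Fis1 is also the shortest of the 10 genes, and with the length trend removed the log2 fold changes of Fis1 and Dnm1l were 0.57 and 0.0037.

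**Figure D4:**
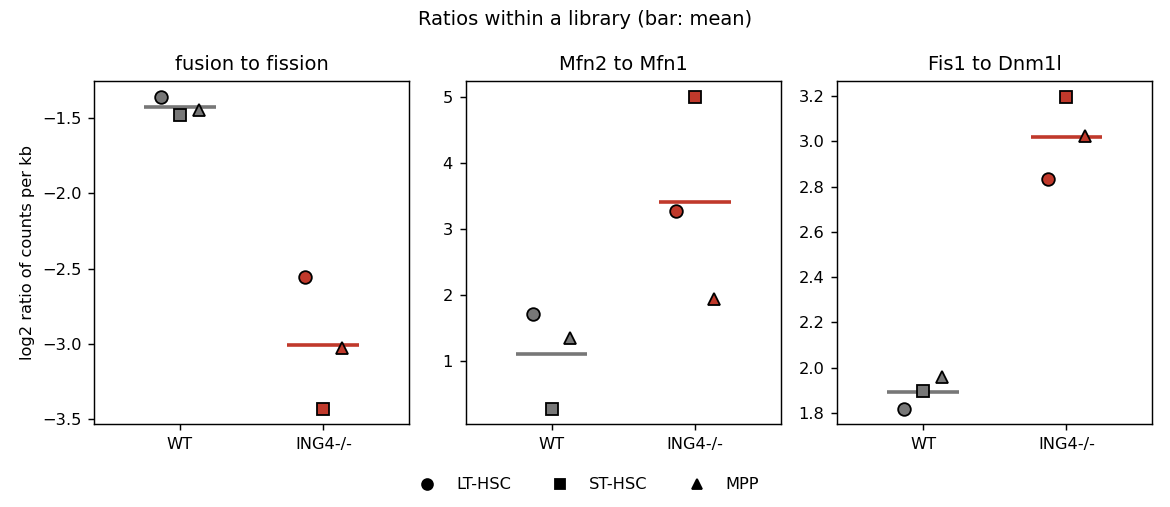
Log2 ratios of length-scaled counts within each library for summed fusion to summed fission genes, Mfn2 to Mfn1 and Fis1 to Dnm1l; symbols and colors mark populations and genotypes, and bars are means of 3 libraries. WT and ING4-/- libraries do not overlap in any panel, with mean differences of -1.58, 2.30 and 1.13.

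The second comparison asked whether the 10 genes differed between stem cells and progenitors, with 2 libraries per population and genotype as a term. None of the 10 was called by edgeR in any of the 3 contrasts or had an unadjusted p under 0.05, where 0% of all 31001 genes were called (561, 616 and 187 genes at an unadjusted p under 0.05 for MPPs against LT-HSCs, ST-HSCs against LT-HSCs and MPPs against ST-HSCs). DESeq2 called 135 genes higher and 173 lower in the first contrast, 73 and 103 in the second and 0 in the third (1390 at an unadjusted p under 0.05), none of them among the 10. The largest difference was in Ppargc1a, whose ING4-/- counts lay in ST-HSCs alone. The edgeR log2 differences were 6.60 (SE 3.61) for ST-HSCs against LT-HSCs and -6.90 (SE 3.61) for MPPs against ST-HSCs, neither of them called. For the same contrasts the DESeq2 test gave 8.47 (SE 2.38, DESeq2 adjusted p = 0.0519) and -8.93 (SE 2.38, DESeq2 adjusted p = 0.0942). Mfn1 and Opa1 were higher in MPPs than in ST-HSCs by 1.12 (SE 0.99) and 1.04 (SE 0.59) on the log2 scale, with both ST-HSC minima in the ING4-/- library. Without that library the differences were -0.10 (Mfn1) and 0.30 (Opa1). In WT, Mfn1 was lower in MPPs (47.4 CPM) than in ST-HSCs (57.3 CPM). Mfn2 was 0.81 lower (SE 0.34) in ST-HSCs than in LT-HSCs. Fis1, Tfam, Mff and Dnm1l differed by at most 0.30 between any populations. With 1 library per population and genotype, a population and its library cannot be told apart.

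The wider machinery was described from 7 lists of 83 other genes, of which 82 were tested. In all, 26 were called higher and 7 lower in ING4-/- cells, with a median log2 fold change of 0.70. The split depended on scaling, with 8 higher and 12 lower under DESeq2 size factors and 44 higher and 4 lower under upper-quartile scaling, which moved the median of all genes from -6.85 to -7.17 and -6.35. Among the fully counted genes 3 were higher and 7 lower of 68, and after background subtraction 7 were higher and 5 lower of 77. With population as a block 18 were higher and 5 lower, and with the length trend removed 7 were higher and 1 lower of 68. Set against all genes called, 26 of 82 was a larger share higher than the 7.98% of all genes and 7 of 82 a smaller share lower than the 56.7%, and 3 of 68 was a smaller share than 8.3%.

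Of 11 genes for the cristae junction complex MICOS and its partners, 6 were called higher and none lower (median log2 fold change 1.04), beside 7.98% of all genes called higher, and 5 with population as a block. Among the fully counted genes and after background subtraction 2 of the 11 were called higher (medians 0.53 and 0.47). The MICOS subunits 2410015M20Rik (Micos13) and Minos1 (Micos10) led with 1.86 (SE 0.33, edgeR adjusted p = 0.00167) and 1.76 (SE 0.35, adjusted p = 0.00308), and Chchd6 followed at 1.32 (SE 0.42, adjusted p = 0.0257). In 2410015M20Rik the WT libraries had 37.5, 45.4 and 41.7 CPM and the ING4-/- libraries 91.9, 203 and 159 CPM. Both 2410015M20Rik and Minos1 were also called after background subtraction (1.10 and 1.05) and among the fully counted genes (1.35 and 1.24), while Chchd6 was not (0.66 and 0.79). They have 755 (2410015M20Rik) and 2766 (Minos1) exonic bases. Fully counted genes under 2000 bases and of 2000 to 4000 bases had median log2 fold changes of 0.76 and 0.33. Of 10 genes for fusion and OPA1 processing, 4 were called higher and none lower (median 1.20), but 1 of 9 among the fully counted genes (median 0.65) and 1 of 10 after subtraction (median 0.59). Mtch2, an outer-membrane protein with a role in fusion, rose by 1.59 (SE 0.32, adjusted p = 0.00302), from 51.6, 86.0 and 102 CPM to 238, 298 and 186 CPM, and was also called after background subtraction (1.19) and among the fully counted genes (1.10). The membrane scaffold genes Stoml2 and Phb, at 1.40 (SE 0.17, adjusted p = 6.57e-04) and 1.29 (SE 0.28, adjusted p = 0.00442), were not called in either, and 16.6% of the exonic bases of Stoml2 overlap a gene on the opposite strand.

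**Figure D5:**
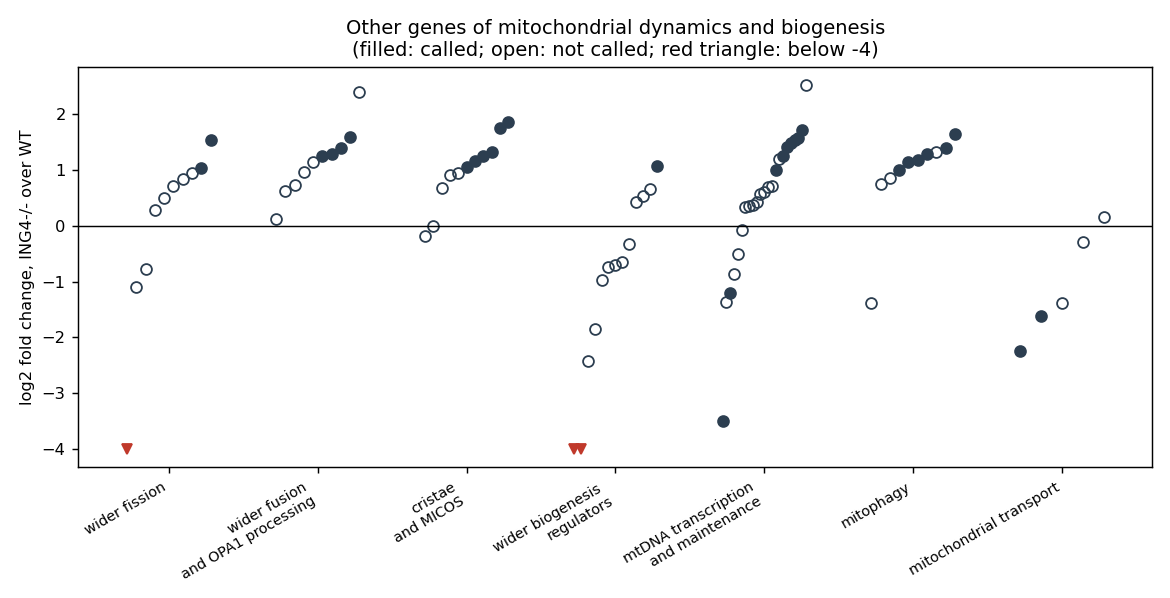
Log2 fold change of ING4-/- over WT for the 82 tested genes of the 7 wider lists, 1 point per gene in order within each list; filled points were called, open points were not, and red triangles are called genes below -4. Points of the cristae, fusion and mitophagy lists lie mostly above 0, and those of the biogenesis and transport lists mostly below it. The lists also differ in length. Median exonic bases were 2905 (cristae), 3401.5 (fusion) and 3929.5 (mitophagy), against 5947.5 (biogenesis) and 7088 (transport), and longer genes had lower fold changes across all fully counted genes.

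Of 10 other fission genes, 2 were called higher and 1 lower (median 0.61), and 1 higher and 1 lower with population as a block. None of 7 was called among the fully counted genes, and none higher and 1 lower of 9 after subtraction. Mtfr2, a fission regulator, had 24.96, 57.7 and 37.1 CPM in WT and 85.4, 142 and 120 CPM in ING4-/- cells (log2 fold change 1.54, SE 0.38, edgeR adjusted p = 0.00852), but it was not called among the fully counted genes (1.02, adjusted p = 0.0855) or after subtraction (0.88, adjusted p = 0.131). Mtfr1l was called at 1.04 (adjusted p = 0.045), and not with population as a block (0.94), among the fully counted genes (0.54) or after subtraction (0.38). Gdap1, an outer-membrane protein best known from peripheral neuropathy, was called lower, with 738, 592 and 429 counts in WT and 0, 0 and 2 in ING4-/- libraries. As with Ppargc1a, the WT counts of Gdap1 were 3.07 to 4.27 times the background density. Of 10 mitophagy genes, 6 were called higher and none lower (median 1.16), beside 7.98% of all genes called higher, and 4 with population as a block. Among the fully counted genes none of 9 mitophagy genes was called (median 0.67), and after subtraction 2 of 10 were higher (median 0.63). Pink1, the kinase that marks damaged mitochondria, was called at 1.39 (SE 0.43, adjusted p = 0.0221), but not among the fully counted genes (0.92, adjusted p = 0.105) or after subtraction (0.82, adjusted p = 0.13). The ubiquitin ligase genes Mul1 and March5 were called at 1.64 (adjusted p = 0.0195) and 1.28 (adjusted p = 0.0352), but not with population as a block (adjusted p = 0.0931 and 0.0862) or among the fully counted genes (1.15 and 0.81), and after subtraction Mul1 was called (2.43) and March5 was not (0.88).

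Of 13 tested regulators of biogenesis beyond the 4 named above, 1 was called higher and 2 lower, with a median of -0.70 that was the same with Ppara set to its bound. With population as a block none was higher and 2 were lower, and among the fully counted genes none was higher and 3 were lower of 9. Prkaa1, a catalytic subunit of the energy sensor AMPK, was called at 1.08 (SE 0.37, edgeR adjusted p = 0.0362), and not with population as a block (adjusted p = 0.0626), among the fully counted genes (0.59) or after subtraction (0.94). The nuclear receptor genes Ppara and Esrrg were called lower. Ppara had 38, 80 and 72 counts in WT, below or near the counts the background alone would give, and 0 in every ING4-/- library. Esrrg had 147, 110 and 110 counts in WT and 0, 0 and 1 in ING4-/- libraries. Its WT counts were likewise near or below what the WT background of 22.4, 22.7 and 18.1 counts per kb would give over its 6208 exonic bases. Neither Ppara nor Esrrg was tested after subtraction. Gabpa, whose product binds the GABP motif printed above, had a log2 fold change of -0.32 (SE 0.42, adjusted p = 0.544).

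Of 23 genes for mitochondrial DNA transcription and maintenance, the processes in which TFAM acts, 7 were called higher and 2 lower (median 0.60), and 4 higher and none lower with population as a block. Among the fully counted genes none was higher and 1 lower of 18 (median 0.15), and after subtraction 1 was higher and 1 lower of 22 (median 0.14). Mterf4 and Tefm, a termination-family factor and a transcription elongation factor of mitochondria, had log2 fold changes of 1.70 (SE 0.42, edgeR adjusted p = 0.00865) and 1.57 (SE 0.55, adjusted p = 0.037). Neither was called among the fully counted genes (1.19 and 1.07) or after subtraction (adjusted p = 0.0672 and 0.191), Tefm was not called with population as a block (adjusted p = 0.129), and 35.2% of the exonic bases of Mterf4 overlap Sned1 on the opposite strand. Mterf1b was called lower (-3.49, SE 1.18, adjusted p = 0.0332), not with the block (adjusted p = 0.0905), and its reads may be split with its near copy Mterf1a, which was at 2.52 (SE 1.15, adjusted p = 0.0935). Of 5 genes for transport along microtubules, none was called higher and 2 lower (median -1.39), beside 56.7% of all genes called lower. Trak2, an adaptor between mitochondria and kinesin, had 49.5, 46.8 and 58.6 CPM in WT and 17.9, 9.04 and 5.63 CPM in ING4-/- cells (log2 fold change -2.25, SE 0.52, adjusted p = 0.00619). Kif5b, the kinesin heavy chain, had 110, 98.1 and 93.2 CPM in WT and 25.6, 13.7 and 59.3 CPM in ING4-/- cells (-1.61, SE 0.53, adjusted p = 0.0299). Both stayed called after background subtraction (-2.50 and -2.17) and among the fully counted genes (-2.74 and -2.13). They are long, at 7088 (Trak2) and 7395 (Kif5b) exonic bases. With the length trend removed only 1 gene of the 7 lists was called lower, so that not both of them kept the call. The lowest Kif5b value was in ING4-/- ST-HSCs, as for Mfn1 and Opa1.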

How the data were processed

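Counts per gene were deposited by the authors as 1 table per library, as raw counts of reads per Ensembl gene with the gene's exons and summed exonic length. Libraries were made and sequenced on Illumina HiSeq by a company, and the submitters' processing notes name the build mm10. The aligner, the counter and the strand setting are not given in the sources used here. Gene symbols were taken from GENCODE M21, which held 49056 of the 49315 identifiers. The 10 genes and the wider lists were chosen with earlier results of these data known.

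Genotypes were compared with edgeR 4.0.16 (glmQLFit and glmQLFTest, TMM, filterByExpr) in R 4.3.3, genotype only, and populations with genotype as a term. Standard errors were taken from the fold change and the F statistic of the test. No pair of libraries within a genotype agreed within sampling noise. Since nothing else replicates a genotype, p-values measure the spread between 3 populations of pooled cells. Each population came from both genotypes and the populations pair the libraries: deviations from the genotype means correlated at r = 0.14, 0.11 and 0.12 in LT-HSCs, ST-HSCs and MPPs across 9673 genes, which are not independent. Blocked values are given where they change the call of a named gene or a list's count. Background was the receptor-gene density times exonic length, subtracted per library. Length trend was removed by loess (span 0.5). From each wider list, up to 3 called genes with the largest absolute log2 fold change and at least 10 counts in every library of a genotype were named, together with Gabpa and Mterf1a, both picked with their values already in view. The fits were first tested on simulated data. Alternatives were DESeq2 1.42.0 (size factors, test), upper-quartile scaling, other filters, the block, background subtraction, length and leaving out each library. Background subtraction and length with the block, and the background-subtracted fold of Ppargc1a within a population, were added after seeing the data. No other transcript of 300 or more bases matched one of the 10 genes at 95% identity.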

Additional observations from a re-analysis of the deposited data

Results flagged for a closer look

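The log2 ratio of ING4-/- to WT within a population had opposite signs between populations for 4 genes; with 1 library per population and genotype these differences were not tested. For Mfn2 the ratio was 0.0011 in LT-HSCs, against 0.65 in ST-HSCs and -0.32 in MPPs. Opa1 had 0.18, -1.72 and -0.26, and the ST-HSC value rests on the ING4-/- library with the lowest Mfn1 level. Nrf1 had 0.30, -0.25 and -0.78 in the same order. Ppargc1b had 1.79, -0.56 and -0.36, with a WT LT-HSC count under the background expected there. Groups of 3 libraries were too small to look for single values that stand apart.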

How the results depend on the processing

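The call of Fis1 was kept in 12 alternatives, among them both scalings, the DESeq2 test, the block and every left-out library, and lost in 5 (full counting, and subtraction or length removal with or without the block), while that of Tfam was kept in 8 and lost in 9. Of the 10 genes, 1 was called higher (Fis1) and 1 lower (Mfn1) with DESeq2 size factors and with the DESeq2 test, 0 higher and 1 lower (Mfn1) among the fully counted genes and after background subtraction, 1 higher and 0 lower with the length trend removed (Mff) with or without the block, and 0 of either with background subtraction and the block together. Leaving out 1 library gave 1 to 2 higher and 0 to 2 lower, and without the ING4-/- ST-HSC library 2 were lower (Mfn1 and Ppargc1a). The replicate block for population alone changed no call among the 10 (Fis1 1.47, Tfam 1.07), and among the named wider genes it changed those given with it above. No gene of the 10 was called between populations with DESeq2 size factors, the DESeq2 test, full counting, subtraction or 1 library left out, the alternatives run there. Genes called higher in all numbered 2475, and 1342, 1518, 4556, 803, 1316 and 879 with DESeq2 size factors, the DESeq2 test, upper-quartile scaling, full counting, subtraction and length removal (549 and 795 with subtraction or length and the block, 1705 to 2804 without 1 library). Genes called lower numbered 17566, and 936, 5928 and 412 with full counting, subtraction and length removal (5587 and 389 with the block). Of the wider lists, 26 higher and 7 lower became 8 and 12 (DESeq2 size factors), 10 and 13 (DESeq2 test), 44 and 4 (upper quartile), 18 and 5 (the block alone), 3 and 7 (full counting), 7 and 5 (subtraction), 7 and 1 (length), 3 and 4 (subtraction with block) and 6 and 1 (length with block), and 14 to 25 and 4 to 8 without 1 library.

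Signs reversed for 5 genes that were not called. Mfn2 was at -0.28 with DESeq2 size factors and the DESeq2 test, -0.44 among the fully counted genes, -0.54 after subtraction (-0.48 with the block) and -0.023 with length removed, and between -0.24 and 0.34 without 1 library. Opa1 was at 0.13 with upper-quartile scaling. Dnm1l was at -0.014 with DESeq2 size factors and the DESeq2 test, -0.16 among the fully counted genes and -0.26 after subtraction with or without the block. Nrf1 was at 0.45 with upper-quartile scaling and 0.68 with length removed (0.58 with the block), and between -0.52 and 0.13 without 1 library. Ppargc1b was at -0.27 with DESeq2 size factors, the DESeq2 test and length removed (-0.11 with the block) and -0.42 among the fully counted genes, and between -0.38 and 0.30 without 1 library. The cause was not tested. The ratios, which were recomputed only after background subtraction and without each library, kept their direction there, with ranges without 1 library of -1.80 to -1.36 for fusion to fission, 1.501 to 3.04 for Mfn2 to Mfn1 and 1.04 to 1.22 for Fis1 to Dnm1l. The fold change of Ppargc1b is limited by its WT counts, which do not exceed the background in 2 of 3 libraries.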
